A study of Arabidopsis thaliana with 12 samples.

Results

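The sites described here are the wobble adenosines of Arabidopsis tRNAs whose anticodon begins with A, the bases that are read as G when they carry inosine. They were taken from tRNA sequencing of *trm5-1* and wild type seedlings as every listed variant site in a tRNA reference with an anticodon starting with A, at positions 33 to 36 of the gene and with A as the gene's base. This rule selected 98 sites, 1 in each of 98 references, out of 1156 variant sites listed in any of the 6 libraries. The libraries held 343 calls at these sites, all 343 at the first anticodon base (position 34 in the standard numbering of tRNAs), and the called base was G in all 343. The change is written A34G below, with the gene's base first, the position counted in the standard numbering, and the called base last.

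The *trm5-1* libraries came from plants homozygous for a T-DNA insertion (SALK_022617, labelled trm5 -/-) in the gene of the tRNA methyltransferase TRM5, and the wild type libraries from Col-0, both in the Columbia background. All were made from whole seedlings 10 days old, with RNA cut from a gel at the length of tRNAs, and there were 3 libraries per genotype, numbered as replicates 2, 3 and 4. The mutant is represented by a single insertion line. The labels do not say whether the libraries of a genotype came from separate cultures, so p-values measure only the spread between these libraries.

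Inosine at the wobble position is made from adenosine by deamination, in cytosolic tRNAs by the paired enzyme TAD2 and TAD3, and in the chloroplast by TADA, whose substrate is tRNA-Arg-(ACG). Inosine pairs with U, C or A of the codon, so a single tRNA can read several synonymous codons, and most eukaryotic tRNAs encoded with A34 carry it. Reverse transcriptase reads inosine as guanosine, so the modified base appears in cDNA as G where the gene has A. TRM5 acts 3 bases downstream of the wobble base, at position 37, where it methylates guanosine and, in tRNA-Ala, inosine made by TAD1.

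The genes below show the A that the calls replace, with the anticodon in capitals and its first letter at position 34. For each family the gene sequence shared by most annotated genes is given, and both forms of tRNA-Ile, since they were called in different libraries. The sequences are from RefSeq's TAIR10.1 assembly and run 5′ to 3′. The reference names carry no coordinates, so a reference was tied to its family and to its listed bases and not to a single locus.
tRNA-Ser-(AGA): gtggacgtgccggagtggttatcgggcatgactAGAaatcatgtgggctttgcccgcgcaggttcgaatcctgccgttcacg
tRNA-Pro-(AGG): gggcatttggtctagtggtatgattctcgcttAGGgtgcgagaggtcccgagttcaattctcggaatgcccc
chloroplast tRNA-Arg-(ACG): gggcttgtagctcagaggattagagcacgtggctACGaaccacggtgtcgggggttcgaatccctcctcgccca
tRNA-Thr-(AGT): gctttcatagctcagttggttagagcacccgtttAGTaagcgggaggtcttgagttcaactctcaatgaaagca
tRNA-Ala-(AGC): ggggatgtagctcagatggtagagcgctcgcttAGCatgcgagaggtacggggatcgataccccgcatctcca
tRNA-Ile-(AAT), first form: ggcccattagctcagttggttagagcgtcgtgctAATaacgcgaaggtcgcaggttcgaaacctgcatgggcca
tRNA-Ile-(AAT), second form: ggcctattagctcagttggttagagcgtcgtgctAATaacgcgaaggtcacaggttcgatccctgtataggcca
tRNA-Val-(AAC): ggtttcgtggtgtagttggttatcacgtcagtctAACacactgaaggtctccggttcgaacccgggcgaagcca
tRNA-Leu-(AAG): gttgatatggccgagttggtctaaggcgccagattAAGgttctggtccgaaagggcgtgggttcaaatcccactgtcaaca
nuclear tRNA-Arg-(ACG): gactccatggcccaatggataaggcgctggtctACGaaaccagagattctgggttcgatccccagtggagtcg

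The serine sequence is that of 20 of 37 annotated genes and is shown for AT1G15650 (chr1:5380907-5380988, + strand). The proline sequence belongs to 9 of 16 genes and is shown for AT1G28870 (chr1:10099425-10099496, + strand). The threonine sequence, of 5 of 10 genes, is that of AT2G34950 (chr2:14743475-14743548, - strand), and the alanine sequence, of 12 of 16 genes, is that of AT1G06610 (chr1:2025356-2025428, + strand). The forms of isoleucine tRNA are encoded by 9 genes, such as AT1G06480 (chr1:1978084-1978157, + strand), and by 8 genes, such as AT1G31110 (chr1:11104113-11104186, + strand). The valine sequence, of 13 of 15 genes, is that of AT1G12510 (chr1:4266988-4267061, - strand), and the leucine sequence, of 10 of 11 genes, is that of AT1G74570 (chr1:28020383-28020463, - strand). The nuclear arginine sequence, of 2 of 9 genes, is that of AT4G31265 (chr4:15183084-15183156, + strand). The chloroplast sequence is in 2 identical genes, ArthCt127 at 108302 to 108375 of the chloroplast genome on the + strand and ArthCt115 at 130274 to 130347 on the - strand.

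All annotated genes of a family shared their anticodon loop, and T33 preceded the wobble base in every one of these families. Position 37 was A in tRNA-Ser, tRNA-Arg, tRNA-Thr, tRNA-Ala, tRNA-Ile and tRNA-Val, and G in tRNA-Pro and tRNA-Leu. Position 32 was C in tRNA-Ser, tRNA-Arg, tRNA-Ile and tRNA-Val, and T in the others. Of the serine genes, 33 of 37 lie on chromosome 1, with 27 of them in 1 cluster from 21268787 to 21307675. The genome also has 1 annotated gene of tRNA-Gly-(ACC), AT1G33370, whose references were listed in none of the 6 libraries.

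The tables list, for each variant site, how many of 2 genotype copies carry each base, as a diploid variant caller assigned them. They hold no read depth, so a call on 1 copy or on 2 copies is not a share of edited molecules, and a site that is not listed may be unedited or uncovered. The libraries listed 408 to 524 sites in *trm5-1* and 417 to 542 in wild type, over 510 references. Libraries shared 13.5% to 37.1% of the calls made in either of a pair, so none was a copy of another. Transcript levels of TRM5 were not analysed here. At position 37 of tRNA-Ala-(CGC), A37G was called in 6, 6 and 7 of 7 references in *trm5-1* replicates 2, 3 and 4, against 0, 1 and 0 in wild type replicates 2, 3 and 4. In tRNA-Ala-(TGC), A37G was called in 2, 2 and 10 of 10 references in *trm5-1*, against 0, 0 and 0 in wild type. A37T, the base as which methylated inosine is read, was called in no *trm5-1* library, and in wild type in replicate 2 only, where the family with CGC had 2 such references and that with TGC had 1. The genotypes did not overlap in A37G of either family. Over all 208 pairs of tRNA family and position with a call in any library, 5.77% had the 3 *trm5-1* libraries above the 3 wild type libraries and 2.40% had them below.

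A34G was called in 66, 42 and 63 references in *trm5-1* replicates 2, 3 and 4, against 59, 56 and 57 references in wild type replicates 2, 3 and 4. The mean was 57 ± 13.1 in *trm5-1* and 57.3 ± 1.53 in wild type (SD, n = 3 each), a difference of -0.33 references (two-sided exact permutation p = 1). The *trm5-1* range enclosed that of wild type, and the lowest count was in the library with the fewest listed sites, *trm5-1* replicate 3 (408 sites). The library with the most listed sites, wild type replicate 3 (542 sites), had the next lowest count, 56. Without *trm5-1* replicate 3 the difference was 7.17 references, and without wild type replicate 2 it was 0.5. With 3 libraries against 3, the smallest p that this test can give is 0.1.

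Of 113 references of the 8 families listed in any library, 37 had A34G in all 6 libraries, 34 in 1 library and 15 in none. The references called in all 6 libraries were 20 of tRNA-Ser, 15 of tRNA-Pro and 2 of tRNA-Arg. Those called once were 17 of tRNA-Ile, 13 of tRNA-Val, 3 of tRNA-Ala and 1 of tRNA-Ser. The 113 references fell into only 24 sets with identical calls at every position in every library, the largest of 20 references. How reads that fit several references were placed is not given, so counts of references were not taken as counts of independent observations.

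**Figure D1:**
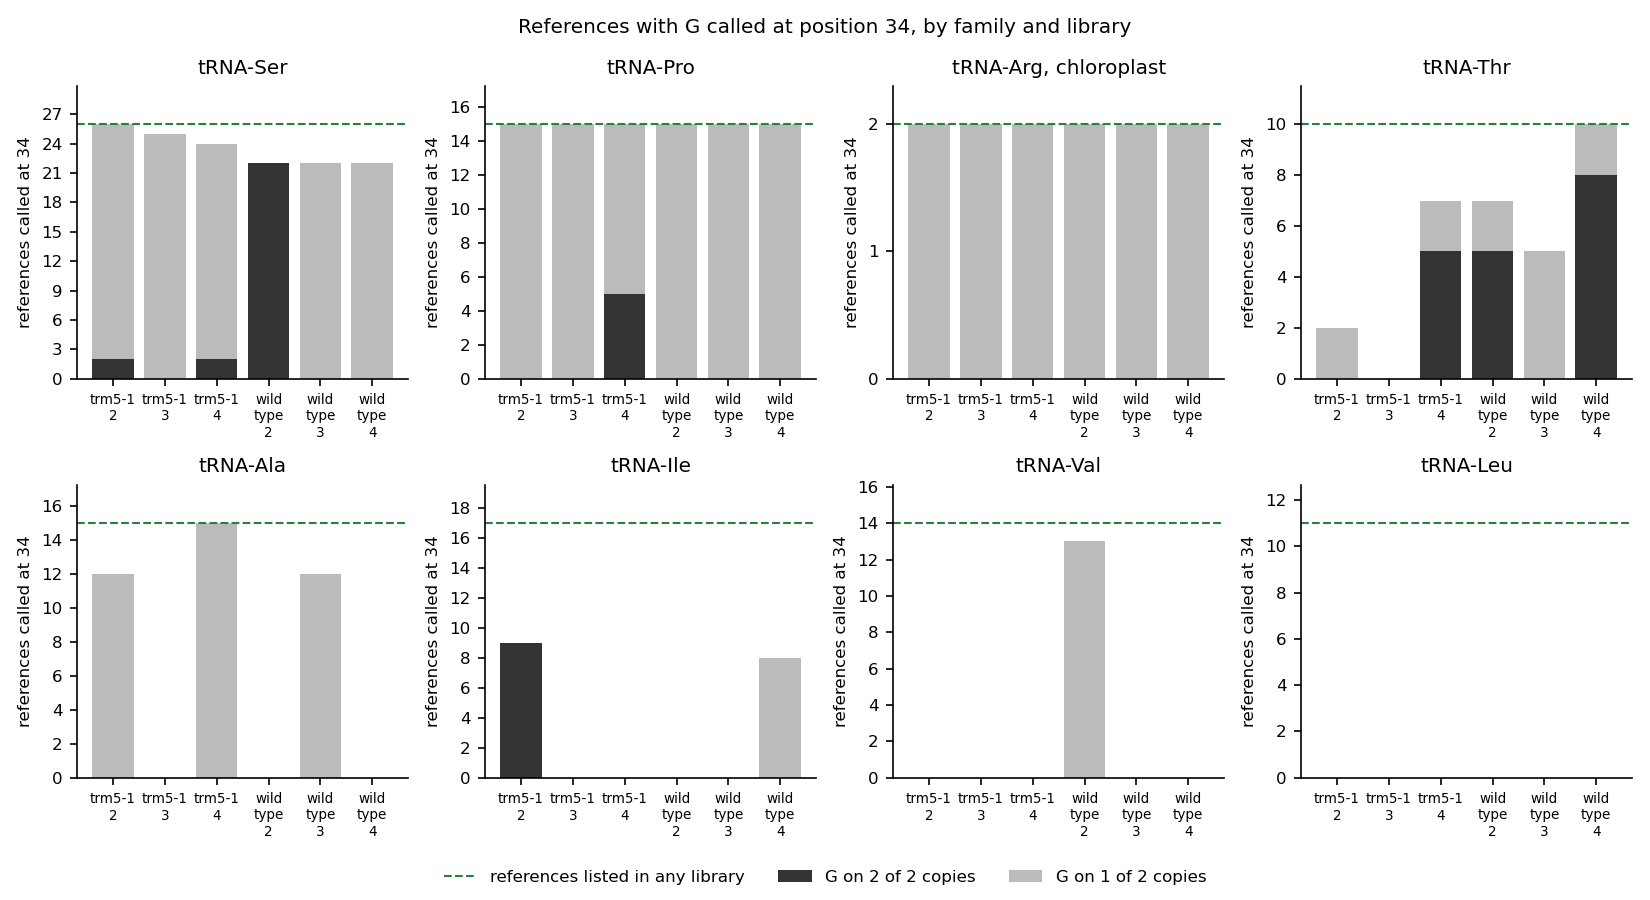
Number of references (y axis) with G called at position 34 in each library (x axis: genotype and replicate number), split by copies of G in the call, for 8 families. The dashed line is the number of references listed in any library; tRNA-Pro and chloroplast tRNA-Arg reach it in all 6 libraries, and tRNA-Leu has no call.

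In tRNA-Ser-(AGA), the largest of these families, A34G was called in 26, 25 and 24 of 26 references in *trm5-1* replicates 2, 3 and 4, against 22, 22 and 22 references in wild type replicates 2, 3 and 4. The genotypes did not overlap, with a difference of 3 references (two-sided exact permutation p = 0.1, Benjamini-Hochberg adjusted p = 0.7 over 7 families). This is to be read against the 5.77% of family and position pairs with *trm5-1* above wild type. Every serine reference listed in a library had A34G there. As a share of the serine references listed in each library, the difference between the genotypes was 0.

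The serine difference came from small groups of references. The 20 references of name group 3 (a name group is the first of the numbers that end a reference name) were called in all 6 libraries. Groups 1 and 2, with 1 reference each, were called in 3 of 3 *trm5-1* libraries and in wild type replicates 3 and 4. Group 7, with 2 references, was called in 3 of 3 *trm5-1* libraries and in wild type replicate 2 alone. Group 4 was called in *trm5-1* replicates 2 and 3, and group 6 in *trm5-1* replicate 2, and neither was called in wild type. Counted by group, the same calls came to 6, 5 and 4 groups in *trm5-1*, against 2, 3 and 3 in wild type (exact permutation p = 0.1). The genotypes did not overlap, but this recounts the same calls and is no separate observation. No background share was computed for counts of groups.

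tRNA-Pro-(AGG) had A34G in 15, 15 and 15 of 15 references in *trm5-1* replicates 2, 3 and 4, against 15, 15 and 15 in wild type replicates 2, 3 and 4. All 4 of its name groups were called in every library. Here the genotypes were equal, and only the copies varied.

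tRNA-Arg-(ACG) split by genome. Position 34 is base 35 of the chloroplast gene and base 34 of the nuclear genes, and the 2 references of name group 7 had A at base 35 as only the chloroplast genes do. These 2 references had A34G on 1 of 2 copies in 6 of 6 libraries, with no other listed site. The 3 references of the nuclear groups 4 and 6 had no call at position 34 in any library. They were listed for other positions only, G26A in 2 references in *trm5-1* replicate 4 and a T-to-C change at base 71 in 1 reference in wild type replicate 2. Nuclear tRNA-Arg-(ACG) was therefore listed in 2 of 6 libraries, and whether its wobble base was edited could not be told from these tables.

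tRNA-Thr-(AGT) had A34G in 2, 0 and 7 of 10 references in *trm5-1* replicates 2, 3 and 4, against 7, 5 and 10 in wild type replicates 2, 3 and 4. The genotypes overlapped, at 3 ± 3.61 references in *trm5-1* and 7.33 ± 2.52 in wild type (SD, n = 3 each; exact permutation p = 0.3, adjusted p = 1). Name group 3 (2 references) was called in every library other than *trm5-1* replicate 3. Group 2 (5 references) was called in *trm5-1* replicate 4 and in wild type replicates 2 and 4. Group 1 (3 references) was called in wild type replicates 3 and 4 and in no *trm5-1* library.

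tRNA-Ala-(AGC) had A34G in 12, 0 and 15 of 15 references in *trm5-1* replicates 2, 3 and 4, against 0, 12 and 0 in wild type replicates 2, 3 and 4. The calls were all on 1 copy, and the mean was 9 ± 7.94 references in *trm5-1* and 4 ± 6.93 in wild type (exact permutation p = 0.7, n = 3 each). In the 3 libraries without A34G the family had no listed site at all. The same 12 references, of name groups 1, 3, 5 and 7, were called together in the 3 libraries that had calls, and the 3 references of groups 2, 4 and 6 were called in *trm5-1* replicate 4 only.

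tRNA-Ile-(AAT) was called in 1 library of each genotype. Its name group 1 (9 references) had A34G on 2 of 2 copies in *trm5-1* replicate 2, and its group 2 (8 references) had A34G on 1 copy in wild type replicate 4. The counts were thus 9, 0 and 0 of 17 references in *trm5-1*, against 0, 0 and 8 in wild type. In *trm5-1* replicate 3 the 8 references of group 2 were listed with T27C on 2 of 2 copies and no call at position 34.

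tRNA-Val-(AAC) had A34G in 13 of 14 references in wild type replicate 2, on 1 copy, and in 0 references in the other libraries. The remaining reference, of group 2, was listed in wild type replicate 4 with changes at other positions. tRNA-Leu-(AAG) had no call at position 34 among its 11 listed references. In *trm5-1* replicate 2, 10 of them were listed at bases 45, 59 and 76 of the gene, and in *trm5-1* replicate 3 the other was listed at base 66. No reference of this family was listed in wild type.

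Of 7 families tested, 0 passed at an adjusted p under 0.05, and 0 at an unadjusted p under 0.05, which 3 against 3 cannot reach.

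**Figure D2:**
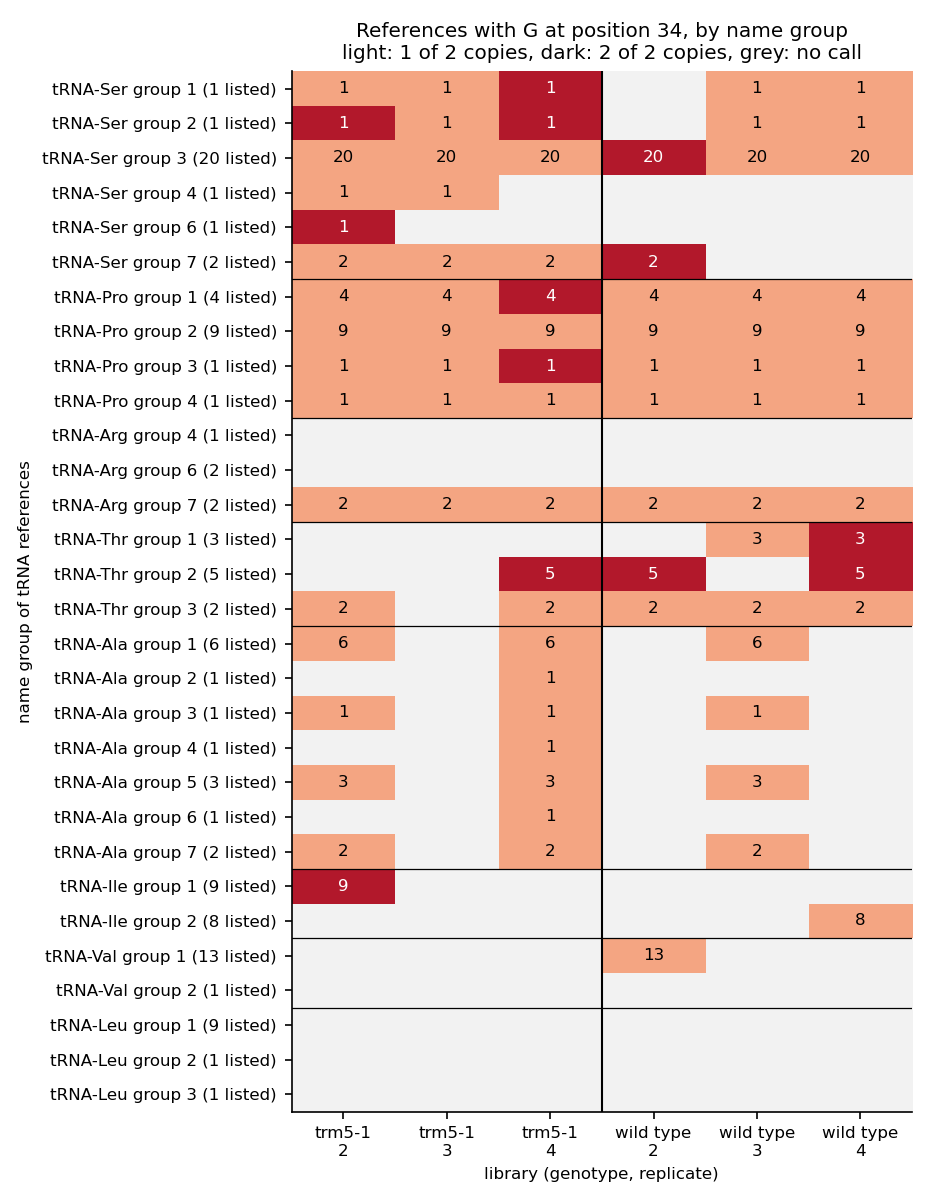
Rows are name groups of tRNA references (number of listed references in brackets), columns are libraries, and each number is how many references had G called at position 34; the darker colour marks G on 2 of 2 copies. References of a name group are called together or not at all, and the serine group of 20, the 4 proline groups and arginine group 7 are filled in all 6 libraries.

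The copies of G in the calls were mostly 1 of 2. G was on 2 of 2 copies in 11, 0 and 12 references in *trm5-1* replicates 2, 3 and 4, against 27, 0 and 8 in wild type replicates 2, 3 and 4. As a share of the A34G references of a library these were 16.7%, 0% and 19.0% in *trm5-1*, against 45.8%, 0% and 14.0% in wild type. The genotypes overlapped, with a difference of -8.03 percentage points (two-sided exact permutation p = 0.9), and without wild type replicate 2 the difference was 4.89 points.

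The 2-copy calls came from 4 families. In tRNA-Ser they numbered 2, 0 and 2 in *trm5-1*, against 22, 0 and 0 in wild type, so all serine calls of wild type replicate 2 were on 2 copies and all those of wild type replicates 3 and 4 on 1. In tRNA-Thr they numbered 0, 0 and 5 in *trm5-1*, against 5, 0 and 8 in wild type. The 9 isoleucine calls of *trm5-1* replicate 2 and 5 of the proline calls of *trm5-1* replicate 4 made up the rest. In tRNA-Ser the summed copies of G were 28, 25 and 26 in *trm5-1*, against 44, 22 and 22 in wild type, so that the order of the genotypes by references did not hold by copies.

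Position 34 held more calls than any other position of these references. Of 962 calls over the 6 libraries, 343 (35.7%) were at position 34, 171 in *trm5-1* and 172 in wild type. The next were 24 bases downstream (189 calls), 2 bases upstream (141 calls) and 8 bases upstream (121 calls). Of all 398 A-to-G calls in these references, 86.2% were at position 34.

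A34G was called in 37.2% to 58.4% of the 113 references per library, a mean of 50.6% ± 7.37 (SD, n = 6). This share counts every reference, although the 113 references fell into 24 sets with identical calls. The other A positions of the same references had A-to-G calls in 0.0595% to 1.49% of places, a mean of 0.545% ± 0.533. The difference of 50.0 percentage points was positive in 6 of 6 libraries (two-sided exact paired permutation p = 0.03125, the smallest that 6 pairs allow). Of the 113 references, 24 were listed through A34G alone (13 of tRNA-Val, 9 of tRNA-Ile and 2 of chloroplast tRNA-Arg), so the set was in part chosen by the value tested. Over the 89 references listed at another position in any library, a comparison added after the data were seen, A34G was called in 44.9% to 68.5% per library, and the difference was 57.2 points (exact paired permutation p = 0.03125). At position 35, next to the wobble base, the genes of tRNA-Ile, tRNA-Val and tRNA-Leu also have A. Their 42 listed references had 0 calls there in the 6 libraries. Yet tRNA-Ile was listed only in *trm5-1* replicates 2 and 3 and wild type replicate 4. tRNA-Val was listed only in wild type replicates 2 and 4, and tRNA-Leu only in *trm5-1* replicates 2 and 3. Elsewhere position 35 may be uncovered, so these 0 calls say little about position 35 against position 34.

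**Figure D3:**
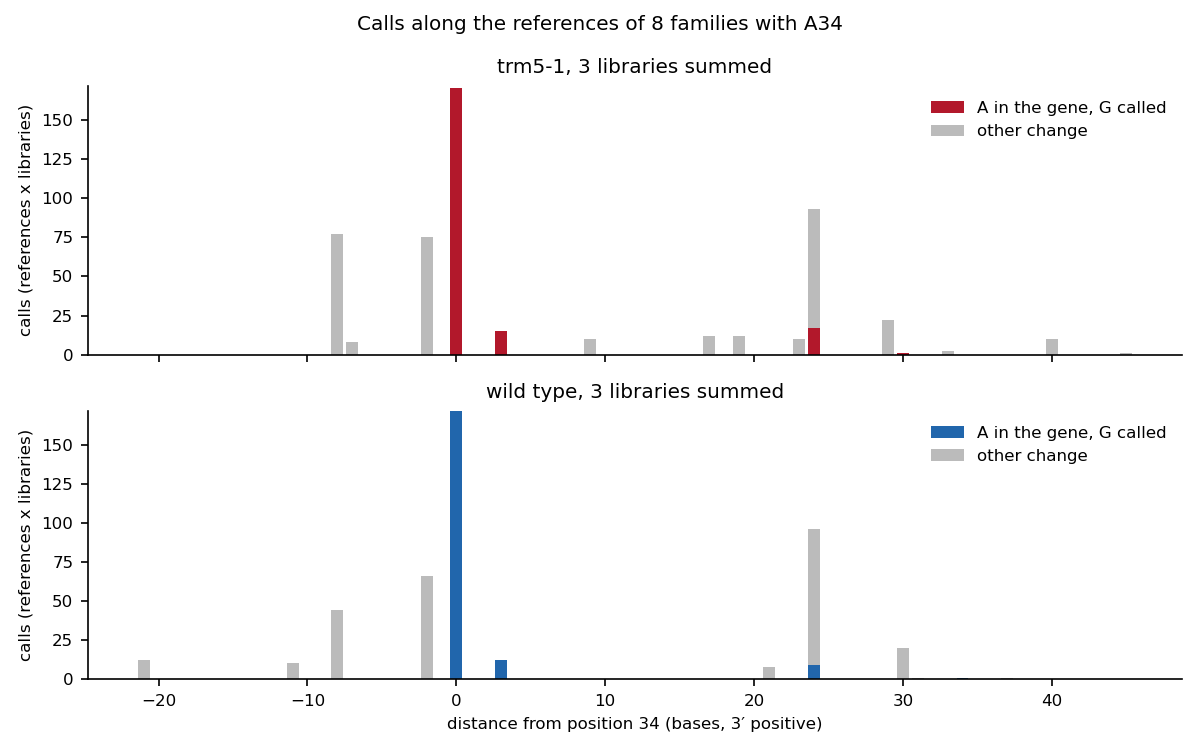
Calls summed over references and over the 3 libraries of each genotype (y axis) by distance in bases from position 34 (x axis), with A-to-G changes in colour and other changes in grey. The highest bar stands at position 34 in both genotypes, with 171 calls in *trm5-1* and 172 in wild type, all A-to-G.

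The neighbouring position with the most calls was position 32, and its calls were confined to tRNA-Ser among these 8 families. C32T was called in 26, 25 and 24 serine references in *trm5-1* replicates 2, 3 and 4, against 22, 22 and 22 in wild type replicates 2, 3 and 4. All 141 of these calls were in references that also had A34G in the same library, so position 32 showed the same counts as position 34. No C32T was called in tRNA-Arg, tRNA-Ile or tRNA-Val, which also have C at position 32. However, tRNA-Ile, tRNA-Val and nuclear tRNA-Arg were listed in few libraries and may be uncovered at position 32 in the rest. Chloroplast tRNA-Arg was listed in every library, at position 34 only. G26A was called in 25, 25 and 22 serine references in *trm5-1*, against 0, 22 and 22 in wild type, again only beside A34G (116 of 116). Wild type replicate 2 thus had no call at position 26 in serine references, and G on 2 copies at position 34. In *trm5-1* replicates 2 and 4, 1 and 2 serine references had G26T.

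The calls 24 bases downstream of the wobble base fall at position 58 of the T loop in tRNAs with a short variable loop. The 22 calls at this distance in tRNA-Ser, all G-to-A in wild type replicate 4, do not fall at that position. In tRNA-Pro, A58T was called in 15, 15 and 14 references in *trm5-1*, against 15, 15 and 15 in wild type, always with A34G. In tRNA-Ala, A58T was called in 12, 0 and 15 references in *trm5-1*, against 0, 12 and 0 in wild type, the same numbers as A34G. In tRNA-Thr, A58G was called in 7, 0 and 10 references in *trm5-1*, against 5, 2 and 2 in wild type, and 18 of 26 of these calls were beside A34G. A58T was called in 0, 0 and 5 threonine references in *trm5-1*, against 0, 3 and 5 in wild type, in all 13 cases beside A34G.

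At position 37, where TRM5 acts on guanosine and, in tRNA-Ala, on inosine, 87 listed references of 6 families have A in the gene. The families with G at this position, tRNA-Pro and tRNA-Leu, had no call at it, though tRNA-Leu was listed in *trm5-1* replicates 2 and 3 only. Calls there were in tRNA-Ala alone, with A37G in 0, 0 and 15 references in *trm5-1* replicates 2, 3 and 4, against 0, 12 and 0 in wild type replicates 2, 3 and 4. Each of these 27 calls stood beside A34G. In *trm5-1* replicate 2 the same alanine references had A34G with no call at position 37. The genotypes overlapped at both positions.

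Position 34 was rarely called where the gene does not have A there. Of 363 references of other families in which position 34 could be located, 38, 1 and 1 had a call at it in *trm5-1* replicates 2, 3 and 4, against 0, 0 and 0 in wild type replicates 2, 3 and 4. The share was 1.84% ± 4.23 over the 6 libraries (SD), and the A34 families were above it in 6 of 6 libraries, by 48.8 percentage points on average (two-sided exact paired permutation p = 0.03125). With only the references listed at another position, 89 of the A34 families and all 363 of the others, the difference was 56.0 points (exact paired permutation p = 0.03125). None of the 122 references with G34 had a call at position 34.

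Nearly all calls of the other families were in 1 family of 1 library. T34G was called in 34 references of tRNA-Pro-(TGG) in *trm5-1* replicate 2, and C34G in 3 and 1 references of tRNA-Pro-(CGG) in *trm5-1* replicates 2 and 3. These are proline families with the same called base as tRNA-Pro-(AGG). The annotated tRNA-Pro-(TGG) genes differ from the closest tRNA-Pro-(AGG) gene at 2 to 5 bases, with a median of 2, and the tRNA-Pro-(CGG) genes at 3 to 6. The part of reads mapped between these families in the calls was not tested. The remaining 2 calls were T34C in 1 reference of tRNA-Ala-(TGC) in each of *trm5-1* replicates 2 and 4. Without *trm5-1* replicate 2 the difference between A34 and other families was 48.9 points.

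**Figure D4:**
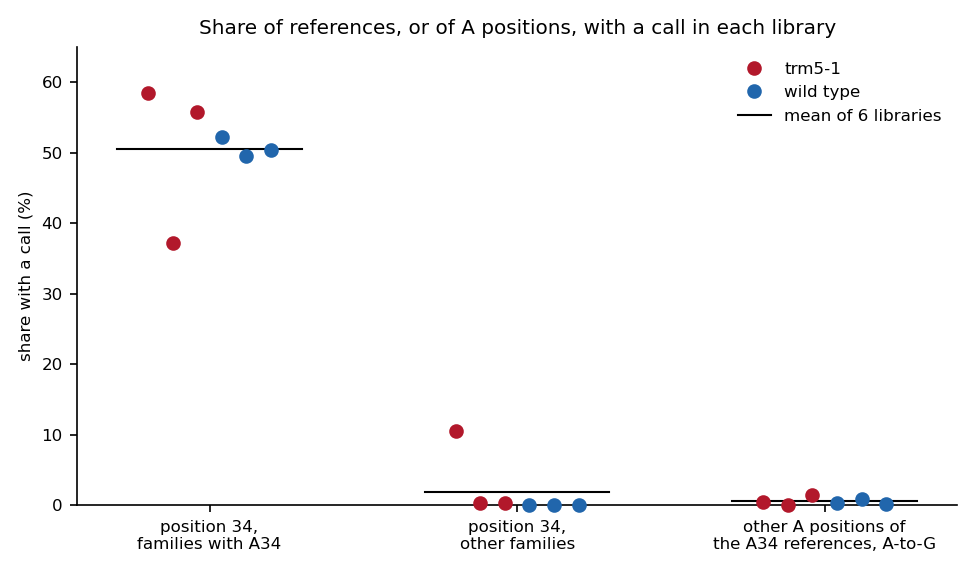
Share in percent (y axis) of references with a call at position 34 in families with A34 and in the other families, and of the other A positions of the A34 references with A-to-G; points are libraries (*trm5-1* red, wild type blue) and bars are means of 6. The A34 families lie at 37.2% to 58.4%, and the single point away from 0 among the other families is *trm5-1* replicate 2 at 10.5%.

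A reference listed at a position other than 34 had reads at that position in the library, though not necessarily at position 34. The references listed at another position were also compared alone, a comparison added after the data were seen. Of 70, 49 and 65 such A34 references in *trm5-1* replicates 2, 3 and 4, 15, 9 and 5 had no A34G, against 1, 0 and 1 of 43, 54 and 53 in wild type replicates 2, 3 and 4. The share with A34G was 78.6%, 81.6% and 92.3% in *trm5-1*, against 97.7%, 100% and 98.1% in wild type. It averaged 84.2% ± 7.21 in *trm5-1* and 98.6% ± 1.24 in wild type (SD, n = 3 each; two-sided exact permutation p = 0.1, the smallest the design allows). The genotypes did not overlap, but this share has no counterpart over the other families, so how often it would separate the genotypes is not known. Without read depth, a reference with no A34G may be unedited or uncovered at position 34, so the share does not measure editing.

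The references without A34G changed from library to library. In *trm5-1* replicate 2 they were 10 of tRNA-Leu and 5 of tRNA-Thr, and in *trm5-1* replicate 3 they were 8 of tRNA-Ile and 1 of tRNA-Leu. In *trm5-1* replicate 4 they were 3 of tRNA-Thr and 2 of nuclear tRNA-Arg. In wild type they were 1 of nuclear tRNA-Arg in replicate 2 and 1 of tRNA-Val in replicate 4. Without tRNA-Leu and nuclear tRNA-Arg, which had no call at position 34 in any library, the share was 91.7%, 83.3% and 95.2% in *trm5-1*, against 100%, 100% and 98.1% in wild type (exact permutation p = 0.1). These families were left out by the value compared, so this share describes the rest and is not a separate result. The references of tRNA-Ser and tRNA-Pro listed in a library, and of tRNA-Ala where it was listed, had A34G in every library of both genotypes.

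**Figure D5:**
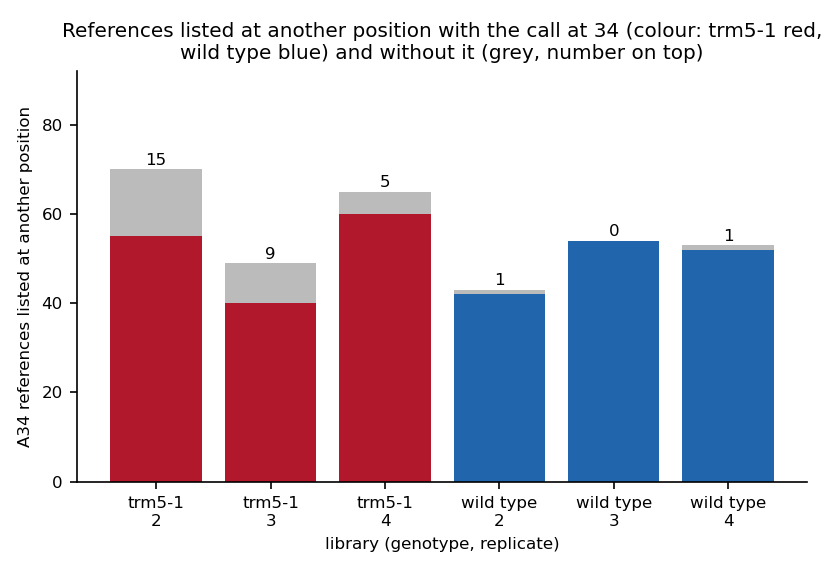
Number of A34 references listed at a position other than 34 in each library (y axis; x axis: genotype and replicate number), with those that had the call at position 34 in colour and those without it in grey, their number on top. The grey part is 15, 9 and 5 references in *trm5-1* and 1, 0 and 1 in wild type.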

How the data were processed

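The authors sequenced gel-purified tRNAs, trimmed reads with Trim Galore 0.4.2, mapped them with segemehl to tRNA genes predicted from TAIR10, and called variants with GATK 3.7 HaplotypeCaller and its hard filters. They deposited, per library, the alleles of each variant site with a count of genotype copies (0, 1 or 2 of 2) rather than reads. How reads that fit several near-identical genes were placed is not given in the sources used here.

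From these tables every base other than that of the gene was read as a call, and all 6 tRNA libraries were used. Position 34 was located by finding an annotated TAIR10.1 gene of the same family with all listed bases, for 156 of 169 name groups (476 of 510 references). Organelle genes were considered only where no nuclear gene had these bases. A34 name groups were all located. The 13 others were left out of the comparison with other families. The expected number of A bases per reference came from these genes.

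Genotypes were compared by two-sided exact permutation of libraries, and positions by exact paired permutation over 6 libraries (Python 3.11.15, numpy 2.4.6; tested on simulated data). All families with A34 listed in any library are named. The members and lists were chosen with earlier results of these data known. Alternatives left out each library, blocked by replicate number, required 2 of 2 copies, counted name groups once, used the gene window alone, summed copies, or used listed references as denominator. The table of mRNA counts and normalized values was not used.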

Additional observations from a re-analysis of the deposited data

How the results depend on the processing

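Leaving out 1 library at a time, the difference in A34G references (*trm5-1* minus wild type) ran from -4.83 to 7.17, that in the share of 2-copy calls from -18.0 to 4.89 percentage points, and that of tRNA-Ile from -2.67 to 3 references. None of these had an exact permutation p under 0.05, which 3 libraries against 2 cannot reach. The serine difference ran from 2.5 to 3.5. The A34 families exceeded the other families by 47.4 to 51.1 points and the other A positions by 48.5 to 52.6 points, each with an exact permutation p = 0.0625, the smallest that 5 libraries allow.

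With calls on 2 of 2 copies only, these differences were 8.51 and 8.46 points (exact permutation p = 0.125 for both), and the serine difference was -6 references. With the references listed in each library as denominator, at any position including 34, they were 89.2 and 91.2 points (exact permutation p = 0.03125), and *trm5-1* minus wild type was -13.4 points (p = 0.1). That denominator is in part set by A34G itself. Summing copies of G made the serine difference -3. Counting each name group once made the difference in A34G 3 groups. The comparisons of the A34 families with the other families and with the other A positions were not repeated by name group. A name group is not always a separate sequence, since tRNA-Ala had 7 groups called and 3 distinct annotated gene sequences. As a share of listed references, tRNA-Thr, tRNA-Ala, tRNA-Ile, tRNA-Val and tRNA-Leu gave no value, since some libraries listed none of their references. Read depth is not in the tables and limits what an unlisted site can show.

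Between same-numbered libraries of both genotypes, deviations had correlations of -0.0287, -0.112 and -0.129 (replicates 2, 3 and 4, over 208 family and position pairs). Between libraries with different numbers they ran from -0.0364 to 0.122. Such small values of either kind cannot tell whether same-numbered libraries were prepared together. Replicate numbers were not taken to pair samples in the main tests. In the exact permutation with the replicate block, the total difference stayed -0.33 (p = 1), the share of 2-copy calls -8.03 points (p = 1) and the serine difference 3 references (p = 0.25, the smallest that 3 pairs allow).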
